A study of Mus musculus with 6 samples.

Results

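Mitosis, spindle and checkpoint genes were followed in mouse blastocysts that developed either in the reproductive tract or in culture. The set was given by name as 39 genes, all of which had a row in the deposited count table of 49993 genes. Of these, 38 passed the filter on low counts, beside 14301 genes in all, and Kif20a did not. The genes cover cyclins, CDK1 and its activating phosphatases, mitotic kinases, the spindle checkpoint, kinetochore and centromere proteins, spindle motors, cytokinesis factors and the machinery of anaphase.

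RNA-seq was available for 3 libraries of in vivo and 3 of in vitro blastocysts. Females of both groups were superovulated with PMSG (10 IU, mare serum gonadotrophin) and hCG (10 IU, human chorionic gonadotrophin) given 48 h apart, then mated naturally, and blastocysts were picked by stage and morphology. The in vivo group was taken by flushing uteri at day 3.5. The in vitro group was taken from oviducts as zygotes 19 to 21 h after hCG, stripped of cumulus cells and cultured to blastocysts in KSOM medium at 37 °C under 5% CO2. Strain, female age and the time cultured blastocysts were frozen are not stated. Descriptions of the samples name a single inner cell mass, the cell type tag names embryonic stem cells, and the text on the design names blastocysts. No label says that libraries of a group came from separate litters, so p-values measure only the spread between these samples, which may be partly technical. Fewer dividing cells and less RNA per cell cannot be told apart.

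Library totals ranged from 6918288 to 17643429 counts. Levels are given as CPM, counts scaled to a common library total, with totals adjusted by trimmed mean of M values (TMM). In vivo replicate 3 stood apart from in vivo replicates 1 and 2: it had the largest total, 41.7% of its counts in an 18S ribosomal RNA gene against 16.7% and 22.2%, and the lowest TMM factor (0.792 against 1.40 and 1.22). The 3 in vitro libraries had 35.8% to 40.4% of counts in that gene. Defining markers of epiblast (Nanog, Sox2), primitive endoderm (Gata6) and trophectoderm (Gata3, Krt8) were present in all 6 libraries. Summed over 8 markers each, trophectoderm genes ranged from 670 to 1376 CPM in vivo and from 1239 to 2268 CPM in vitro, with 7 of 8 log2 fold changes positive. Primitive endoderm genes ranged from 302 to 635 CPM in vivo and from 620 to 904 CPM in vitro, with 8 of 8 positive, and Foxa2 had 0 counts in all 3 in vivo libraries. Epiblast genes ranged from 580 to 841 CPM in vivo and from 465 to 973 CPM in vitro, with 2 of 8 positive. For each lineage the summed ranges overlapped between the groups. Single markers did not overlap in 5 of 8 for primitive endoderm, 2 of 8 for trophectoderm and 1 of 8 for epiblast. All of these were higher in vitro, and 19.3% of all tested genes did not overlap. DESeq2 called Sox7, Foxa2 and Id2 higher in vitro, where it called 2.37% of all genes. Limma-voom called Sox7 and Id2, where it called 0.713%, and edgeR called 0 lineage markers. Of 6 cumulus cell markers, 5 had 0 counts in every library, as had 4 of 6 blood markers and 3 of 6 uterine epithelial markers (Ltf, Pgr and Wnt7a). The uterine marker Muc1 had 132, 58 and 215 counts in vivo compared with 1, 36 and 1 in vitro. Krt7 had 166, 25 and 0 counts in vivo compared with 4, 44 and 16 in vitro, and Epcam was at 369 to 636 CPM over the 6 libraries. The part of these lineage and other marker levels in the results below was not tested.

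Entry into mitosis is driven by CDK1 bound to cyclin B, which CDC25 phosphatases switch on. Once chromosomes condense, kinetochores capture spindle microtubules, and the spindle checkpoint holds back the anaphase-promoting complex until every kinetochore is attached. The complex then marks cyclin B and securin for destruction, separase cuts cohesin, and the central spindle directs cytokinesis. Most of these genes are transcribed in late S and G2 phase, and their promoters are known for CCAAT boxes, bound by NF-Y, and for a cell cycle homology region (CHR, TTTGAA), bound by MuvB complexes. Cleavage-stage cells and many, though not all, blastocyst cells are dividing, and these transcripts are abundant in the preimplantation embryo.

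The promoters were examined because many genes of this kind share this regulation. RefSeq windows on GRCm38.p6, of 250 bases before to 50 bases after the start site, were found for 32 of the 39 genes. A CCAAT box on either strand was present in 27 of the 32 windows (84.4%), compared with 37.9% of the 27025 windows of all genes. TTTGAA on either strand was present in 22 (68.8%) compared with 18.1%, and both motifs in 21 (65.6%) compared with 7.12%. At least 2 CCAAT boxes were present in 17 (53.1%) compared with 12.2%. The E2F-type sequences TTTGGCGC or TTTCGCGC were present in 2 (6.25%) compared with 0.833%. Both CCAAT and TTTGAA were held by 14 of 19 windows of members with a positive log2 fold change and by 7 of 13 windows of members with a negative one. A match is a sequence description only.

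The stretches below lie upstream of annotated starts and show the motif-rich promoters of the cyclin B genes, their kinase and 2 factors of anaphase, followed by 3 members whose levels did not overlap between the groups. Each is written 5′ to 3′ on the gene's strand, with the CCAAT boxes, the CHR and the E2F-type sequences, on either strand, in capitals. Positions are on GRCm38, at chr10:69352913-69353052 (minus strand) for Cdk1, chr13:100786487-100786626 (minus) for Ccnb1, chr9:70421555-70421694 (minus) for Ccnb2, chr2:164769789-164769928 (plus) for Ube2c, chr4:118437344-118437483 (minus) for Cdc20, chr7:80294311-80294444 (plus) for Prc1, chr1:189688108-189688226 (minus) for Cenpf and chr19:37376242-37376381 (plus) for Kif11.
Cdk1: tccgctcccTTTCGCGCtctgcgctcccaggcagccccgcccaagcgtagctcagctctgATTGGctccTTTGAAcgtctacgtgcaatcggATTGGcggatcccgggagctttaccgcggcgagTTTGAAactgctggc
Ccnb1: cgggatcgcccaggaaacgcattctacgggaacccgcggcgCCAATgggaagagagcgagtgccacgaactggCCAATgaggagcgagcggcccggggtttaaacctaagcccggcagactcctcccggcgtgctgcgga
Ccnb2: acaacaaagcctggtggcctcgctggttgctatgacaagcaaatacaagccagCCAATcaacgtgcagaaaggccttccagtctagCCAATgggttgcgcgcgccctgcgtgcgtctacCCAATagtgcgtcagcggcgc
Ube2c: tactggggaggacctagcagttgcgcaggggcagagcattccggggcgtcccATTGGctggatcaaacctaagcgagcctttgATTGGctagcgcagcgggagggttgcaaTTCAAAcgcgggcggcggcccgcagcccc
Cdc20: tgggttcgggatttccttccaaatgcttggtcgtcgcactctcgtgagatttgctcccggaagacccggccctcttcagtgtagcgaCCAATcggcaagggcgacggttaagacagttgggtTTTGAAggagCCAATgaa
Prc1: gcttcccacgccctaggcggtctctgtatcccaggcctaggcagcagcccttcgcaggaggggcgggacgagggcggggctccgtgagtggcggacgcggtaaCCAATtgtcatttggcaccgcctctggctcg
Cenpf: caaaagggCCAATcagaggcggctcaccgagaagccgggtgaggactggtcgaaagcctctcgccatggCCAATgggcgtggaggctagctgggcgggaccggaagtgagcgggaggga
Kif11: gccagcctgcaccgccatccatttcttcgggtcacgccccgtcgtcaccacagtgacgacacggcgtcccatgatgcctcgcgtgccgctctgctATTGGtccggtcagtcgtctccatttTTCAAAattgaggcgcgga
The Cdk1 stretch held 2 CCAAT boxes, 2 TTTGAA motifs and an E2F-type sequence, and the Ccnb2 stretch 3 CCAAT boxes starting 87, 54 and 21 bases before the start site. Ccnb1 had 2 CCAAT boxes and no TTTGAA in its window. In Cdc20 the TTTGAA began 18 bases before the start site, between CCAAT boxes at 53 and 8 bases. Prc1 had a single CCAAT box, 37 bases before the start, and its TTTGAA, 5 bases before the start, is outside the stretch shown, as is that of Cenpf.

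None of the 38 tested members passed the quasi-likelihood test of edgeR after Benjamini-Hochberg adjustment over all genes, in which 0 of 14301 genes passed (0%). The smallest adjusted p among the members was 0.385, for Ttk. DESeq2 (2.37% of all genes called) and limma-voom (0.713% called) also called 0 members, with smallest adjusted p-values of 0.0641 for Prc1 and 0.117 for Incenp. At an unadjusted p below 0.05, edgeR had 6 members, 3 higher and 3 lower in vitro, where 10.2% of all tested genes were below that value, 5.11% higher and 5.08% lower. Without the filter edgeR called 1.40% of genes, and its newer form called 0.0210%, none of them members. DESeq2 with 1 library left out called members in 2 of 6 fits: Prc1 and Pttg1 without in vivo replicate 3, where 5.72% of all genes were called, and Ttk and Kif20a without in vitro replicate 2, where 4.83% were called. In the other 4 such fits, with 1.58, 0.730, 1.26 and 1.72% of all genes called, it called 0 members. Of the 38 log2 fold changes (in vitro minus in vivo), 23 were positive and 15 negative, and all genes split into 7116 and 7185. The median over the tested members was 0.25, and −0.01 over all genes. The sign of that median depended on the method: it was −0.07 when libraries were scaled by totals alone, which shifted the median of all genes to −0.31 and left 15 members positive and 23 negative. By limma-voom the median was −0.08, with 18 members positive and 20 negative, and the median of all genes was −0.09.

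**Figure D1:**
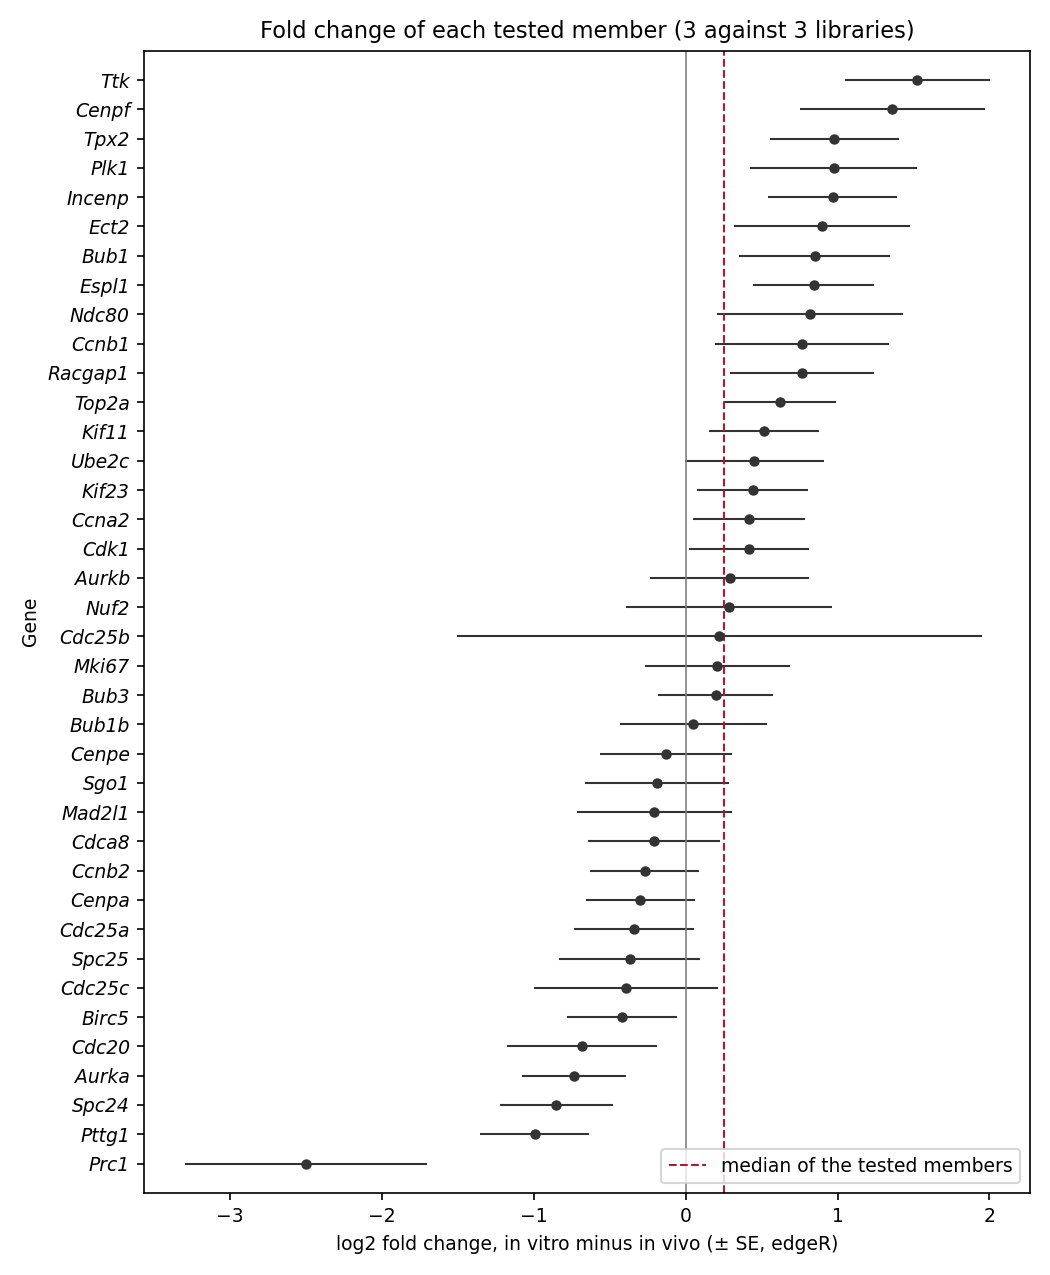
Log2 fold change of each of the 38 tested members, in vitro minus in vivo, with its standard error from edgeR (x axis) and genes sorted by value (y axis). Points run from −2.50 for Prc1 to 1.52 for Ttk on both sides of 0, and the dashed line marks the median of 0.25.

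In 10 of the 38 tested members the 3 in vitro libraries did not overlap the 3 in vivo libraries, 6 of them higher and 4 lower in vitro. Over all tested genes the groups did not overlap in 19.3%, with 9.27% higher and 10.0% lower. Higher in each in vitro library were Ttk, Cenpf, Tpx2, Incenp, Espl1 and Kif11. Lower in each were Prc1, Pttg1, Spc24 and Aurka, and the untested Kif20a. Whether the shares among the members differ from those over all genes was not tested.

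**Figure D2:**
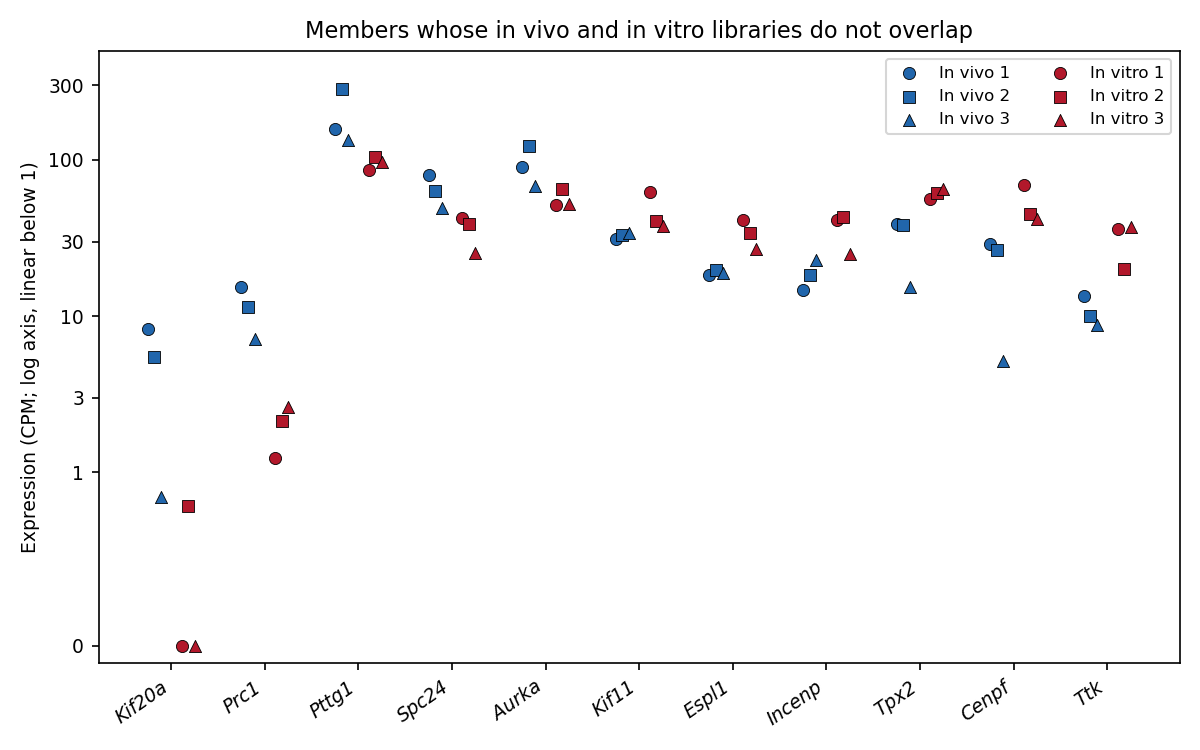
Expression in CPM (y axis, log scale, linear below 1) of the 11 members whose groups did not overlap (x axis), with 1 point per library. In Prc1 the in vitro points lie at 1.22 to 2.60 CPM and the in vivo points at 7.09 to 15.4 CPM, whereas in Ttk the order is the opposite.

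The cyclins and CDK1 drive mitotic entry. Cyclin A2, encoded by Ccna2, acts from S phase to early mitosis and was at 88.6, 72.7 and 51.8 CPM in vivo compared with 131, 79.2 and 74.3 CPM in vitro. Cdk1, the mitotic kinase itself, was at 99.4, 89.2 and 52.8 CPM in vivo compared with 121, 65.4 and 136 CPM in vitro. Ccnb2, a B-type cyclin, was at 115, 81.9 and 57.4 CPM in vivo compared with 56.8, 69.9 and 84.1 CPM in vitro. In all 3 genes the groups overlapped and in vivo replicate 3 was the lowest in vivo library. Their log2 fold changes were 0.42 ± 0.37, 0.42 ± 0.39 and −0.27 ± 0.36 (SE).

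Ccnb1, the main B-type cyclin of mitosis, varied most within the groups among these. It was at 111, 124 and 35.4 CPM in vivo compared with 99.7, 87.2 and 274 CPM in vitro, so that the single highest library was in vitro replicate 3 and the lowest in vivo replicate 3. Its log2 fold change was 0.77 ± 0.57 (SE, adjusted p = 0.692, edgeR). Leaving out in vitro replicate 3 gave 0.055, and leaving out in vivo replicate 3 gave 0.39. A row named Ccnb1-ps, a transcribed pseudogene on chromosome 7 by RefSeq, had 1162, 1572 and 385 counts in vivo compared with 97, 453 and 368 counts in vitro. Relative to the counts of Ccnb1, this was 81.7%, 101% and 77.8% in vivo and 17.0%, 38% and 17.5% in vitro. The 2 ranges did not overlap, while the log2 fold change of Ccnb1-ps, −1.31 ± 0.59 (SE), did not pass (adjusted p = 0.493, edgeR; 0.278, DESeq2). How reads were divided between the 2 rows in the authors' counting is not stated. With both rows summed, cyclin B1 was at 202, 250 and 63.0 CPM in vivo compared with 117, 120 and 322 CPM in vitro, which is a fold change, on the log2 scale, of 0.12 ± 0.57 (SE, adjusted p = 0.965, edgeR). The value for Ccnb1 alone is uncertain.

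**Figure D3:**
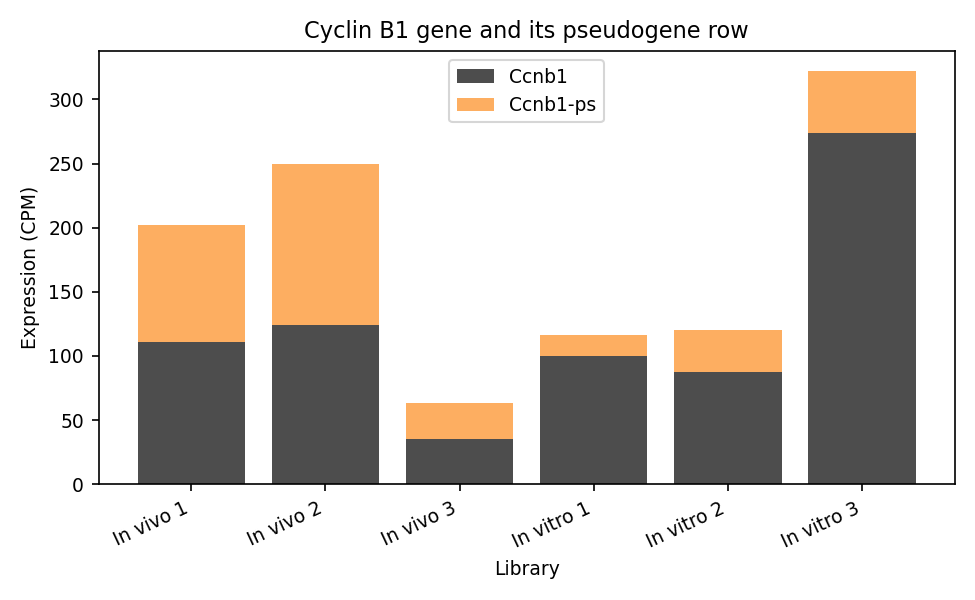
Stacked bars of the cyclin B1 gene and its pseudogene row in CPM (y axis) for each library (x axis). The pseudogene part is 77.8% to 101% of the Ccnb1 part in the 3 in vivo libraries and 17.0% to 38% of it in the in vitro libraries.

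The CDC25 phosphatases remove inhibitory phosphates from CDK1 and CDK2. Cdc25a was the main transcript of the family in both groups, at 71.2, 48.9 and 65.8 CPM in vivo compared with 34.1, 73.2 and 39.2 CPM in vitro. Per kilobase of gene length its mean over the 6 libraries was 14.9 CPM, compared with 5.59 for Cdc25c and 0.437 for Cdc25b. Cdc25c was at 9.45 to 17.2 CPM in vivo compared with 6.0 to 12.1 CPM in vitro. Cdc25b had 0 to 30 counts per library, with 0 in in vivo replicate 3 and 2 in in vitro replicate 2. Log2 fold changes of the 3 genes were −0.34 ± 0.40, −0.39 ± 0.60 and 0.22 ± 1.73 (SE) for Cdc25a, Cdc25c and Cdc25b, and all 3 overlapped between the groups.

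Among the mitotic kinases, Ttk had the smallest p of all members. TTK, also called MPS1, starts the spindle checkpoint at unattached kinetochores. It was at 13.4, 10.1 and 8.73 CPM in vivo compared with 35.9, 20.0 and 37.0 CPM in vitro, so that the lowest in vitro library lay above the highest in vivo library. The log2 fold change was 1.52 ± 0.48 (SE; adjusted p = 0.385, edgeR; 0.0920, DESeq2; 0.133, limma-voom). DESeq2 called it without in vitro replicate 2 (log2 fold change 1.80, adjusted p = 0.0285) and in no other fit with a library left out.

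Aurora A, a kinase of spindle poles, and its activator TPX2 had log2 fold changes of opposite sign. Aurka was at 90.0, 124 and 67.8 CPM in vivo compared with 51.8, 65.1 and 52.3 CPM in vitro, with no overlap (log2 fold change −0.73 ± 0.34, SE, adjusted p = 0.505, edgeR). Tpx2 was at 39, 38.2 and 15.3 CPM in vivo compared with 56.5, 61.1 and 64.7 CPM in vitro, again with no overlap (0.98 ± 0.42, adjusted p = 0.482, edgeR). The in vitro libraries were close to each other in both genes, and in vivo replicate 3 was the lowest in vivo library in both. Neither difference passed. Aurka shares 212 of its 2235 annotated bases with Cstf1 on the opposite strand.

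Plk1, the polo kinase of mitotic entry and exit, was at 17.3, 24.3 and 8.88 CPM in vivo compared with 52.3, 20.5 and 26.7 CPM in vitro. Aurkb, the kinase of the chromosomal passenger complex, was at 24.3, 15.0 and 27.4 CPM in vivo compared with 33.4, 12.1 and 36.2 CPM in vitro. Bub1, a checkpoint kinase that marks centromeres, was at 15.7, 24.6 and 33.3 CPM in vivo compared with 56.7, 21.1 and 55.1 CPM in vitro. In Aurkb and Bub1 in vitro replicate 2 was well below in vitro replicates 1 and 3, and all 3 genes overlapped between the groups. Log2 fold changes were 0.97 ± 0.55, 0.29 ± 0.52 and 0.85 ± 0.50 (SE).

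The other checkpoint genes showed no shift between the groups larger than their spread. BUB1B (BUBR1), BUB3 and MAD2 form the complex that blocks CDC20. Bub3 was at 41.6 to 59.9 CPM in vivo compared with 36.0 to 69.8 CPM in vitro, and Bub1b at 25.8 to 31.7 CPM in vivo compared with 14.1 to 47.2 CPM in vitro. Bub1b was tight in vivo, with an SD of 2.99 CPM, and wide in vitro, with an SD of 16.6 CPM. Mad2l1 was at 52.6, 62.7 and 17.7 CPM in vivo compared with 30.3, 31.3 and 53.6 CPM in vitro. The 3 log2 fold changes were 0.20 ± 0.38 for Bub3, 0.05 ± 0.48 for Bub1b and −0.21 ± 0.51 for Mad2l1 (SE).

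Kinetochore and centromere genes differed among themselves. Spc24, an inner subunit of the NDC80 complex that binds microtubules, was at 79.8, 62.9 and 49.3 CPM in vivo compared with 42.1, 39.1 and 25.3 CPM in vitro. All 3 in vitro values lay below the in vivo range (log2 fold change −0.85 ± 0.37, SE, adjusted p = 0.485, edgeR). Its partner Spc25 overlapped, at 17.1 to 31.4 CPM in vivo compared with 12.9 to 22 CPM in vitro (−0.37 ± 0.47). The outer subunits Ndc80 and Nuf2, at 4.72 to 15.1 and 7.5 to 12 CPM in vivo, were at 12.1 to 24.6 and 5.41 to 22.8 CPM in vitro (0.82 ± 0.61 and 0.29 ± 0.68). The 4 subunits of this one complex therefore had log2 fold changes of both signs, none of them called.

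Cenpf, a large kinetochore and spindle matrix protein made in G2, was at 29.1, 26.6 and 5.15 CPM in vivo compared with 69.1, 45.3 and 42.0 CPM in vitro. The in vivo values of this gene were spread by in vivo replicate 3, where the level was far below in vivo replicates 1 and 2. The log2 fold change was 1.36 ± 0.61 (SE, adjusted p = 0.493, edgeR). Cenpe, a kinesin that brings chromosomes to the spindle equator, was at 18.1 to 33.2 CPM in vivo compared with 18.5 to 29.2 CPM in vitro. Cenpa, the histone H3 variant of centromeres, was at 110, 124 and 73.9 CPM in vivo compared with 62.1, 75.5 and 112 CPM in vitro. Both overlapped, with log2 fold changes of −0.13 ± 0.44 and −0.30 ± 0.36 (SE).

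The chromosomal passenger complex corrects wrong attachments of kinetochores and later acts at the midzone. Incenp, its scaffold, was at 14.8, 18.2 and 22.8 CPM in vivo compared with 40.9, 43.2 and 25 CPM in vitro, with no overlap (log2 fold change 0.97 ± 0.42, SE, adjusted p = 0.485, edgeR). In vitro replicate 3 lay only just above the highest in vivo library. Birc5, which encodes survivin, had the second highest mean level in CPM of the set, at 209, 185 and 95.7 CPM in vivo compared with 97.9, 139 and 129 CPM in vitro. Cdca8, which encodes borealin, was at 81.8, 79.3 and 34.2 CPM in vivo compared with 44.9, 78.4 and 45.7 CPM in vitro. For both genes in vivo replicate 3 lay below the in vitro range, and the log2 fold changes were −0.42 ± 0.36 and −0.21 ± 0.43 (SE).

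Genes of the central spindle and cytokinesis held the largest fold change of the set. PRC1 bundles the antiparallel microtubules of the central spindle. Prc1 was at 15.4, 11.5 and 7.09 CPM in vivo, from 197, 144 and 99 counts, and at 1.22, 2.12 and 2.60 CPM in vitro, from 7, 29 and 20 counts. Every in vitro library lay below every in vivo library, with a log2 fold change of −2.50 ± 0.80 (SE; adjusted p = 0.396, edgeR; 0.0641, DESeq2; 0.131, limma-voom). DESeq2 called Prc1 without in vivo replicate 3 (−2.74, adjusted p = 0.0152) and in no other fit with a library left out. Prc1 shares 776 of its 3415 annotated bases with Rccd1 on the opposite strand, and a library kit that does not mark strand cannot tell reads of the 2 genes apart there. Over the 6 libraries Rccd1 had 568 counts and Prc1 496.

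Kif20a, a kinesin (MKLP2) that carries the passenger complex to the central spindle, had 106, 69 and 12 counts in vivo compared with 0, 11 and 0 counts in vitro. This was 8.28, 5.51 and 0.859 CPM in vivo against 0, 0.805 and 0 CPM in vitro, where a count of 0 allows up to 0.525 and 0.391 CPM in in vitro replicates 1 and 3. In vivo replicate 3 was close to in vitro replicate 2, so that the separation of the groups rested on in vivo replicates 1 and 2. Without a filter the log2 fold change was −4.01 ± 1.72 (SE, adjusted p = 0.331, edgeR), and DESeq2 called it only without in vitro replicate 2 (adjusted p = 0.0208). The gene overlaps Cdc23 on the opposite strand over 2365 of its 3905 annotated bases, so its counts are uncertain.

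The other members of this group had positive log2 fold changes. Kif23, a centralspindlin kinesin (MKLP1), was at 25.7, 33.8 and 38.4 CPM in vivo compared with 54.6, 40.6 and 37.9 CPM in vitro, and its partner Racgap1 at 44.0, 32.7 and 14.3 CPM in vivo compared with 58.9, 36.3 and 59.6 CPM in vitro. Ect2, the exchange factor that centralspindlin recruits to start the furrow, was at 34.9, 23.5 and 15.7 CPM in vivo compared with 27.6, 23.4 and 87.3 CPM in vitro. Log2 fold changes were 0.44 ± 0.37, 0.77 ± 0.47 and 0.90 ± 0.58 (SE), and the value for Ect2 was 0.047 without in vitro replicate 3. Kif11, the kinesin that separates spindle poles, was at 31.2, 32.8 and 34.1 CPM in vivo compared with 61.9, 40.8 and 37.6 CPM in vitro, with no overlap (0.52 ± 0.36, adjusted p = 0.669, edgeR). The count table annotates Kif11 on chromosome 19 and again on a patch sequence, so reads that match both places may have been lost.

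The anaphase machinery included log2 fold changes of opposite sign in securin and separase, which bind each other until anaphase. Pttg1, which encodes securin, the inhibitor, had the highest mean level of the set in CPM. It was at 157, 283 and 134 CPM in vivo compared with 86.0, 105 and 96.8 CPM in vitro, with no overlap. The in vitro libraries lay within an SD of 9.54 CPM and the in vivo libraries within 80.5 CPM, and the log2 fold change was −0.99 ± 0.36 (SE; adjusted p = 0.416, edgeR; 0.177, DESeq2). DESeq2 called it without in vivo replicate 3 alone (−1.19, adjusted p = 0.0390), and edgeR's log2 fold change was −0.61 without in vivo replicate 2, the highest library.

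Espl1, which encodes separase, was at 18.3, 19.8 and 18.8 CPM in vivo compared with 41.1, 34.2 and 26.8 CPM in vitro, again with no overlap (0.84 ± 0.40, SE, adjusted p = 0.509, edgeR). Its in vivo SD was 0.770 CPM and its in vitro SD 7.14 CPM. Cdc20, the activator of the anaphase-promoting complex, was at 54.9, 51.7 and 23.1 CPM in vivo compared with 14.7, 36.8 and 29.0 CPM in vitro. Ube2c, the ubiquitin-conjugating enzyme of that complex, was at 83.6, 90.8 and 48.7 CPM in vivo compared with 106, 47.4 and 152 CPM in vitro, and was the member of highest level per kilobase, with a mean of 94.6 CPM per kilobase. Sgo1, which protects centromeric cohesin, was at 17.9 to 34.7 CPM in vivo compared with 16.0 to 31.8 CPM in vitro. The last 3 overlapped, with log2 fold changes of −0.68 ± 0.49, 0.45 ± 0.46 and −0.19 ± 0.47 (SE).

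Top2a and Mki67 act on chromosome structure and on the chromosome surface and are used as markers of proliferation. Top2a was at 62.4, 74.8 and 63.5 CPM in vivo compared with 152, 68.9 and 88.0 CPM in vitro. Mki67 was at 36.3, 24.7 and 76.5 CPM in vivo compared with 62.1, 35.9 and 61.3 CPM in vitro. Their groups overlapped, with log2 fold changes of 0.62 ± 0.37 and 0.21 ± 0.48 (SE). In contrast to most members, Mki67 had its highest value in in vivo replicate 3.

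Summed over all 39 genes, the members took 2029, 2123 and 1347 CPM in the 3 in vivo libraries and 1996, 1673 and 2189 CPM in the 3 in vitro libraries. The sums overlapped, with means of 1833 ± 423 CPM in vivo compared with 1953 ± 261 CPM in vitro (SD, n = 3 each). In vivo replicate 3 had the lowest sum of the 6 libraries and lay below both other in vivo libraries in 27 of the 38 tested members. The same was true of 46.8% of all tested genes. With 0.5 CPM added to both terms, the log2 ratio of in vivo replicate 3 to the mean of the other 2 was taken. Its median was −0.69 for the members and −0.15 for all genes. The heat map shows these values by gene. Without the added 0.5 CPM, the log2 ratio was −2.43 for Cenpf, −1.73 for Ccnb1, −1.70 for Mad2l1 and −1.50 for Ndc80. It was −1.42 for Racgap1 and −1.33 for Tpx2, whereas it was 1.33 for Mki67. Kif20a was at −3.00, and Cdc25b had 0 counts in that library. The median SD of log2(CPM + 0.5) over members was 0.478 in vivo and 0.455 in vitro, compared with 0.614 and 0.714 over all tested genes.

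**Figure D4:**
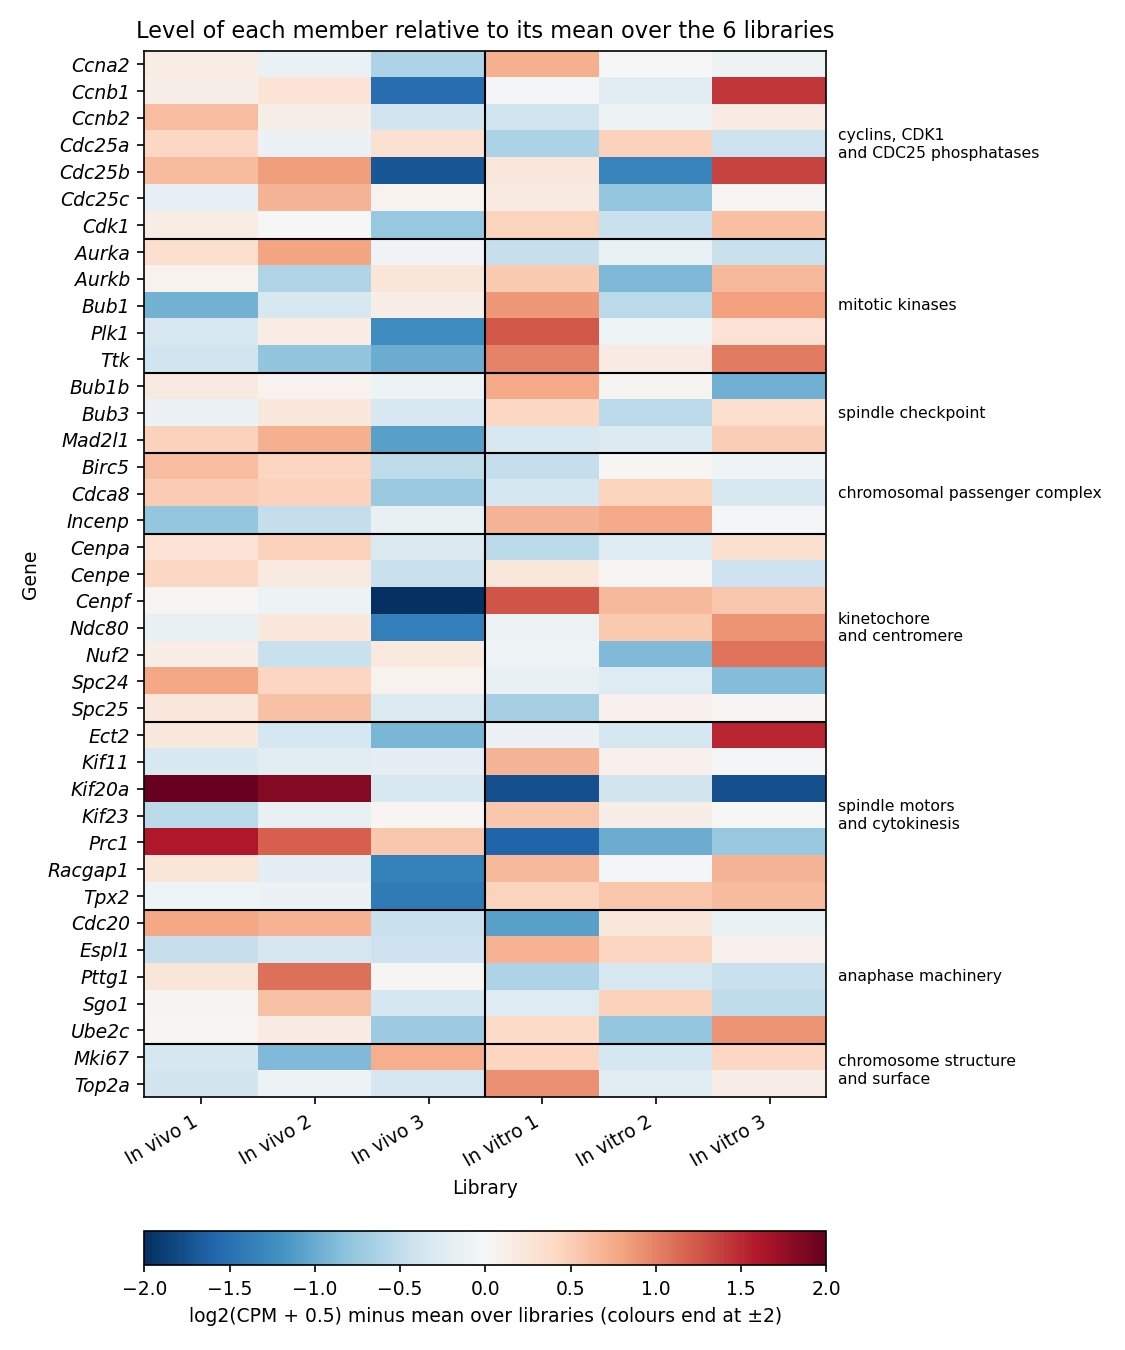
Level of each of the 39 members (rows, by role) in each library (columns) as log2(CPM + 0.5) minus its mean over the 6 libraries. Red is above and blue below that mean, and the column of in vivo replicate 3 is blue in most rows, with Mki67 among the exceptions.

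Ratios between members within a library do not depend on how libraries are scaled. The 17 partner pairs shown, chosen after the values were seen, were compared as counts per base of gene length, without a test. The securin to separase ratio, Pttg1 over Espl1, was 21.0, 35 and 17.4 in vivo and 5.12, 7.52 and 8.84 in vitro, without overlap. Tpx2 over Aurka was 0.222, 0.158 and 0.116 in vivo and 0.559, 0.480 and 0.633 in vitro, also without overlap. Prc1 over Kif23 was 0.610, 0.346 and 0.188 in vivo and 0.0229, 0.0532 and 0.070 in vitro. Among all 666 pairs of the 37 members with counts in every library, the groups did not overlap in 177 (26.6%). Ttk over Mad2l1 was 0.105 to 0.324 in vivo and 0.418 to 0.776 in vitro, and Cenpf over Cenpe was 0.196 to 0.647 in vivo and 1.24 to 1.63 in vitro. In all, 5 of the 17 pairs did not overlap and 12 did. Among those that overlapped, Cdca8 over Birc5 was 0.751 to 0.900 in vivo and 0.742 to 1.19 in vitro, and Spc24 over Spc25 was 2.29 to 3.76 in vivo and 1.35 to 3.73 in vitro. Ccnb1 over Ccnb2 overlapped at 0.411 to 1.01 and 0.830 to 2.17.

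**Figure D5:**
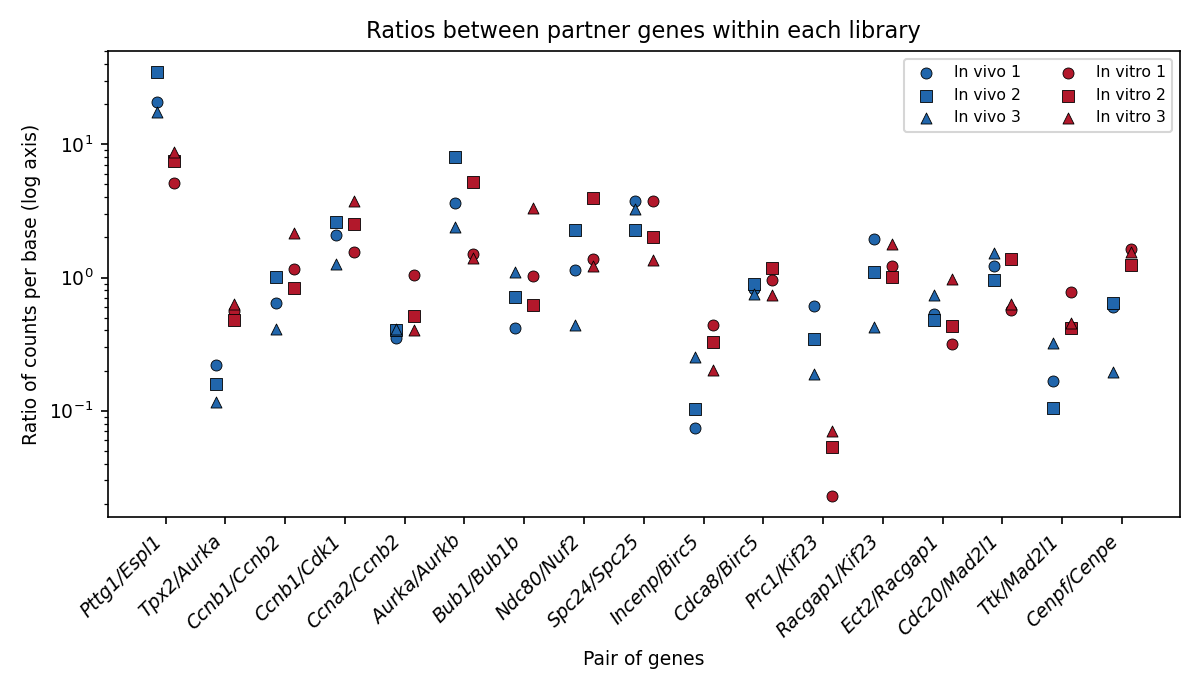
Ratio of counts per base (y axis, log scale) for 17 pairs of partner genes (x axis), with 1 point per library. Pttg1/Espl1 is lower and Tpx2/Aurka higher in each in vitro library, while pairs such as Cdca8/Birc5 overlap.

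Among related genes outside the set, no gene of 8 lists was called by edgeR, DESeq2 or limma-voom. These tools called 0, 2.37 and 0.713% of all tested genes. Among 17 subunits and regulators of the anaphase-promoting complex, 7 log2 fold changes were positive and 10 negative, with a median of −0.31. The subunit gene Anapc11 was at 81.3, 100 and 98.1 CPM in vivo compared with 56.5, 58.7 and 33.3 CPM in vitro, and the subunit gene Cdc16 at 30.8, 27.0 and 47.3 CPM in vivo compared with 11.2, 19.3 and 19.0 CPM in vitro, both without overlap. Anapc11 and Cdc16 had adjusted p-values of 0.428 and 0.464 (edgeR). The groups did not overlap in 4 of the 17 genes, compared with 19.3% of all tested genes. Fzr1, the activator of the complex after anaphase, was at 33.2, 14.3 and 11.5 CPM in vivo compared with 61.2, 39.8 and 22.8 CPM in vitro.

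Condensin and cohesin genes, which shape and hold sister chromatids, had 16 positive and 5 negative log2 fold changes of 21, with a median of 0.39. Stag2, a cohesin subunit gene, was at 28.8, 25.9 and 23.6 CPM in vivo compared with 58.8, 66.0 and 32.0 CPM in vitro (log2 fold change 1.00 ± 0.40, SE, adjusted p = 0.450, edgeR). Rad21, the cohesin subunit that separase cuts, was at 168, 149 and 115 CPM in vivo compared with 265, 192 and 202 CPM in vitro. Ncaph, a condensin subunit gene, was at 13.5, 13.9 and 0.787 CPM in vivo compared with 42.3, 19.5 and 36.4 CPM in vitro. All 3 were without overlap, as were 6 of the 21 genes, where 19.3% of all tested genes did not overlap.

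Of 38 other spindle and midbody genes, 20 were positive and 18 negative (median 0.13), of 34 other checkpoint and kinetochore genes 18 and 16 (median 0.25), and of 13 centriole and centrosome genes 10 and 3 (median 0.64). Haus1, of the augmin complex that branches microtubules, was at 61.3, 59.6 and 98.4 CPM in vivo compared with 37.2, 35.1 and 41.9 CPM in vitro. Anln, which encodes the furrow protein anillin, was at 55.1, 38.8 and 26.8 CPM in vivo compared with 72.1, 74.7 and 70.8 CPM in vitro. Hjurp, the chaperone that places CENP-A at centromeres, was at 49.4, 56.4 and 95.0 CPM in vivo compared with 43.0, 34.4 and 36.2 CPM in vitro. Pcm1, of centriolar satellites, was at 16.6, 20.3 and 20.0 CPM in vivo compared with 29.9, 32.4 and 48.2 CPM in vitro. These 4, named for their small p, did not overlap between the groups and were of adjusted p 0.425, 0.478, 0.499 and 0.469 (edgeR). In these lists the groups did not overlap in 10 of 38, 7 of 34 and 1 of 13 genes, compared with 19.3% of all tested genes.

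Of 18 genes of cell cycle transcription (the E2F family, NF-Y and MuvB subunits, Foxm1 and Mybl2), 13 were positive and 5 negative, with a median of 0.22. Lin37, a subunit of MuvB, the complex that binds the CHR, was at 5.15, 11.5 and 7.95 CPM in vivo compared with 0.874, 2.34 and 1.17 CPM in vitro (log2 fold change −2.46 ± 0.93, SE, adjusted p = 0.428, edgeR). E2f3 was at 4.45, 2.23 and 0 CPM in vivo compared with 19.2, 12.3 and 17.6 CPM in vitro (2.87 ± 1.25, adjusted p = 0.484, edgeR). Among 13 tested regulators of mitotic entry, 7 were positive and 6 negative with a median of 0.01. Ppp2r2a, a regulatory subunit gene of the phosphatase PP2A, which opposes CDK1, was at 54.2, 59.5 and 105 CPM in vivo compared with 48.6, 31.2 and 40.5 CPM in vitro (−0.87 ± 0.39, adjusted p = 0.494, edgeR). Pkmyt1, a kinase that restrains CDK1, was at 11.4, 9.10 and 8.38 CPM in vivo compared with 0, 3.44 and 0.391 CPM in vitro, and Mastl, the Greatwall kinase that protects CDK1 substrates from dephosphorylation, at 9.84, 9.42 and 11 CPM in vivo compared with 42.3, 11.2 and 18.4 CPM in vitro (adjusted p = 0.505 and 0.523, edgeR). Of 15 tested G1 and S phase cyclins, kinases, inhibitors and pocket proteins, 7 were positive and 8 negative (median −0.02). Rbl1, the pocket protein p107 of the repressive DREAM complex, was at 8.43, 3.27 and 6.66 CPM in vivo compared with 45.8, 10.5 and 24.7 CPM in vitro (2.14 ± 0.68, adjusted p = 0.396, edgeR).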

How the data were processed

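RNA-seq was done on 3 in vivo and 3 in vitro blastocyst samples (Zymo microextraction, Vazyme TruePrep, a transposase kit with no strand information, per the labels). One table of raw counts per gene was deposited, with the column layout of featureCounts. Build GRCm39, FastQC 0.11.2 and DESeq2 are named in the submitters' processing notes, but all 39 members have the coordinates of RefSeq on GRCm38.p6, so positions are on GRCm38. No source used here gives the aligner, counter or strand setting. Gene lengths are in another column of the same deposited table.

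Counts were tested with edgeR 4.0.16 in R 4.3.3: filter by expression, TMM scaling, robust dispersions (common biological coefficient of variation 0.727) and the 2-sided legacy quasi-likelihood F-test between the groups over 14301 genes, at an adjusted p of 0.05. Standard errors derive from the F statistic. DESeq2 1.42.0 and limma 3.58.1 (voom with quality weights) were alternatives, with other scalings, filters, a replicate block and each library left out. Each tool was checked on simulated counts. DESeq2 with each library left out, the summed Ccnb1 rows and the ratios were added after the data were seen. A count of 0 was read as at most 3 counts, for counting error only.

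The members and lists were chosen with earlier results of these data known. All members were named, with values in every library for those without overlap, the 10 highest and those with unadjusted p below 0.05, and up to 3 genes of smallest p from each of 8 related lists (174 genes). Of the 39 members, 7 share exon bases with another row. Promoter windows came from RefSeq, and protein sequences were not used here.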

Additional observations from a re-analysis of the deposited data

How the results depend on the processing

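Of the 38 tested members, 26 kept the sign of their log2 fold change under all 22 alternatives, and 38 of 836 values changed sign. Over all genes, 339 were called by DESeq2, 102 by limma-voom, 391 by edgeR without a filter and 3 by its newer quasi-likelihood form, none of them a member. The members' median was −0.0733 with library totals alone and −0.0779 with limma-voom. With library totals alone the log2 fold change was −0.0311 for Cdk1, −0.40 for Cdc25b, −0.0649 for Aurkb, −0.30 for Bub1b, −0.19 for Bub3, −0.0817 for Nuf2, −0.0073 for Mki67 and −0.0052 for Ube2c. With limma-voom it was −1.54 for Cdc25b, −0.11 for Bub1b, −0.0756 for Bub3, −0.12 for Nuf2 and −0.0801 for Ube2c.

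Leaving out 1 library at a time, with edgeR or DESeq2, gave 0 to 892 calls over all genes, 0 to 2 among the members, and member medians of 0.04 to 0.53. The 892 came from DESeq2 without in vivo replicate 3, where Prc1 and Pttg1 were called. Without in vitro replicate 2 DESeq2 made 736 calls, among them Ttk and Kif20a. Log2 fold changes then ranged from −0.43 to 0.41 for Bub1b, −0.48 to 0.018 for Ccnb2, −0.96 to 0.82 for Cdc25b, −0.34 to 0.0692 for Cenpe, −0.58 to 0.14 for Mad2l1, −0.0946 to 0.82 for Mki67, −0.45 to 0.69 for Nuf2 and −0.55 to 0.11 for Sgo1. The cause of these changes was not tested.

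No label says whether the replicate numbers pair the samples. Same-numbered libraries correlated at −0.10, 0.08 and −0.05 in their deviations from the group means. With 3 libraries per group, such values cannot show whether the samples were paired. With the number as a replicate block, 0 genes were called, the members' median was 0.17, and Cdc25b was at −0.11 and Bub1b at −0.11. Kif20a, Cdc25b and, in vitro, Prc1 had few counts, which limits the precision of their values.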

Other observations

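Outside mitosis genes, in vivo replicate 3 also differed in Mos, the oocyte kinase that holds the egg in meiotic metaphase. Mos had 13, 5 and 1325 counts in in vivo replicates 1, 2 and 3 and 0 counts in all 3 in vitro libraries. No other oocyte marker examined rose to such counts there. In in vivo replicate 3, Zp2 and Oog1 had 1 count each, and Zp1, Gdf9, Bmp15, Oosp1 and Nlrp5 had 0. Zp3 was also highest in in vivo replicate 3, with 26, 46 and 63 counts in in vivo replicates 1, 2 and 3. In vitro it had 0, 19 and 0 counts, without overlap between the groups in CPM. The uterine epithelial marker Muc1 had 132, 58 and 215 counts in vivo compared with 1, 36 and 1 in vitro, while Ltf, Pgr and Wnt7a had 0 counts in all 6. The part of these transcripts in the values of the mitosis genes was not tested.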
